A study of Americamysis bahia with 35 samples.

Results

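The genes described here are the 200 Trinity genes whose levels differed most between libraries of the same group in whole juvenile mysids. They were taken from 22900 Trinity genes, the gene-level units of a transcript assembly, by summing the estimated counts of all transcripts of a Trinity gene and dividing by the library total, which gives CPM (counts scaled to a common library total). The choice was limited to Trinity genes with a mean of at least 10 CPM and outside the 100 most abundant by summed TPM, which left 6529. It was further limited to those whose unweathered 1.08 g/L libraries were neither all above nor all below all control libraries, which left 6086. The 200 with the highest pooled within-group standard deviation (SD) of log2(CPM+1) over 7 groups of 5 libraries were then taken. That SD and the comparison of unweathered 1.08 g/L with the control therefore chose these genes, and their values in both are descriptions without a test.

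Within-group spread is the variation of libraries around the mean of their group, and in an exposed group it is not by definition apart from the exposure. Mysids are shrimp-like crustaceans that grow by moulting, and RNA of a whole animal holds the transcripts of all its tissues together with those of anything in the gut. In such bulk RNA, fewer cells of a type and less RNA per cell cannot be told apart. The files used here do not pair Trinity IDs with gene names, so the genes are given by ID, and no role can be given for any of them.

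The animals were 5-day-old *Americamysis bahia*, an estuarine species used in toxicity testing, held for 96 h in seawater of 25 ppt and fed brine shrimp (*Artemia*) nauplii. The control group had 0 g/L of leachate from tire-wear particles (TWP). The other groups had unweathered leachate at 0.27, 0.54 or 1.08 g/L or weathered leachate at 0.67, 1.34 or 2.68 g/L. RNA came from whole bodies in all 7 groups, and each group had 5 libraries. The labels do not say whether a library was made from 1 animal, a pool or a tank, so each p-value weighs a difference against spread among libraries that can be partly technical.

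Total counts per library ran from 18081325 to 28390588, with 20060 to 21204 Trinity genes detected. The 200 genes together held between 1.42% and 4.45% of the counts of a library. In 4 libraries many of the 200 were low at once. These were replicate 5 of unweathered 0.27 g/L, replicates 4 and 5 of unweathered 0.54 g/L and replicate 3 of weathered 1.34 g/L. Some levels and changes of the gene sets described here are also given without them.

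The SD of the 200 ran from 1.02 to 3.61 on the log2 scale with a median of 1.38, where the median over the 6086 was 0.213. The cut fell in a continuous range. TRINITY_DN7713_c0_g1 and TRINITY_DN13664_c0_g1 were just inside it, both with an SD of 1.02, and TRINITY_DN2111_c0_g1 and TRINITY_DN10665_c0_g2, also at 1.02 each, were just outside. Their mean levels ran from 10.04 to 975 CPM with a median of 35.1 CPM, beside a median of 25.2 CPM over the 6086. A mean of at least 10 CPM was a step of the rule, and a gene could pass it through a few high libraries, as TRINITY_DN5096_c0_g1 did with a median of 1.77 CPM over the 35 libraries. In all 62 of the 200 (31%) were below 1 CPM in at least 1 library, as were 1.08% of the 6086. In 77 of the 200 the highest library was at least 100 times the lowest, with levels under 3 counts set to 3 counts, and no other Trinity gene of the 6086 had such a range. Both traits follow largely from a wide spread, which chose the genes, so these contrasts are descriptions.

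Since the spread chose the genes, it was measured again in libraries that had no part in the spread. Each group in turn was left out, 200 genes were chosen from the other 6 groups, and their SD was taken in the 5 libraries left out. The steps were those of the rule, except that the step on unweathered 1.08 g/L and the control could not be applied when either was left out. The 200 were then chosen from 6495 genes without the control, from 6486 without unweathered 1.08 g/L, and otherwise from 6059 to 6142. Of these 200, between 184 and 194 were also among the genes described here. Their median SD in the group left out ran from 0.770 at unweathered 1.08 g/L to 1.65 at unweathered 0.54 g/L, and was 1.13 in the control. The median over all the genes they were chosen from ran from 0.156 to 0.261 in the same libraries, so the chosen genes were 4.72 to 8.98 times as variable. All 200 lay above that median in every group left out, and between 175 and 199 of them above its 90th percentile. The spread was thus present in the control as well as in each exposed group, and its median was lowest at unweathered 1.08 g/L. The median over all the genes they were chosen from was also lowest there, at 0.156. Relative to that median, the chosen genes were 4.94 times as variable at unweathered 1.08 g/L, and the lowest value, 4.72, was at weathered 0.67 g/L. With all libraries used, the median SD of the 200 was 0.790 at unweathered 1.08 g/L, 1.14 in the control and between 1.30 and 1.74 in the other 5 groups.

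**Figure D1:**
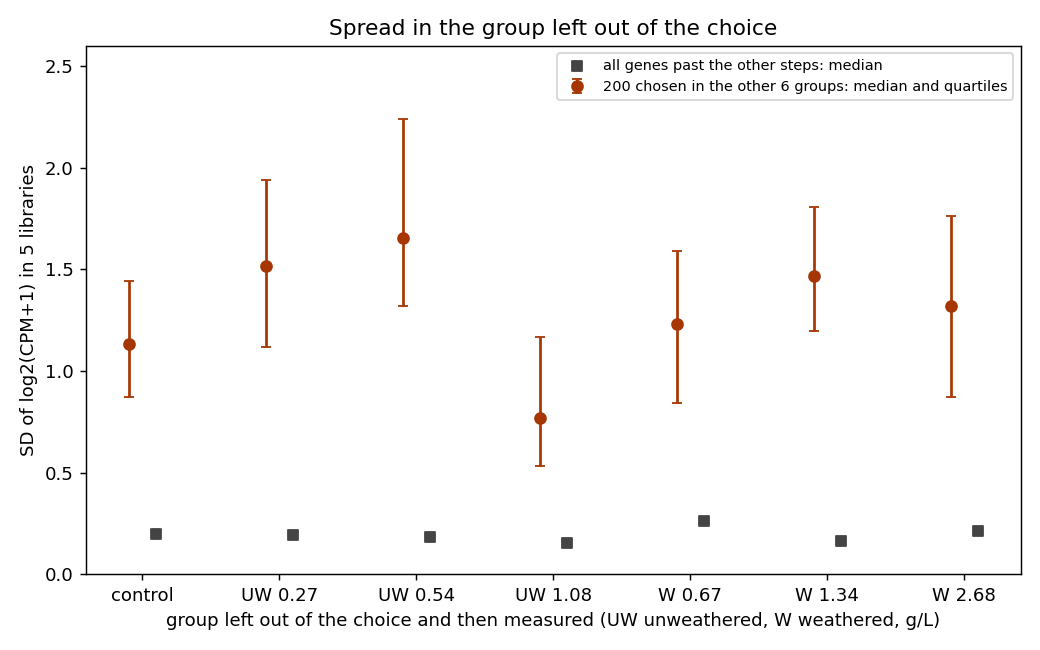
SD of log2(CPM+1) over the 5 libraries of a group that was left out of the choice of genes (y axis), for each group left out (x axis). Circles and bars are the median and quartiles of the 200 genes chosen from the other 6 groups and squares the median of all genes past the other steps of the choice; the circles lie between 0.770 and 1.65 and the squares between 0.156 and 0.261.

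The highest SD, 3.61, belonged to TRINITY_DN12931_c0_g1, with 5 transcripts of up to 10312 bases. In the control it stood at 3.49, 7.88, 27.3, 0.0553 and 16.9 CPM in replicates 1 to 5. At unweathered 0.54 g/L it stood at 6388, 0.0893, 4.00, 0.0913 and 542 CPM, and at unweathered 1.08 g/L at 0.0384, 0, 56.2, 2300.2 and 250.2 CPM. The same group thus held libraries in which it was among the abundant transcripts and libraries in which it had almost no counts. Unweathered 0.27 g/L gave 6.82, 35.2, 9.50, 25.6 and 193 CPM. In the weathered groups the values were 78.3, 0.473, 99.0, 2.01 and 14.6 CPM at 0.67 g/L, 165, 52.6, 10.7, 215 and 5.34 CPM at 1.34 g/L, and 134, 47.4, 0.144, 322 and 0 CPM at 2.68 g/L. In total 8 libraries from 5 groups lay at or below 0.473 CPM, and the other 27 at 2.01 CPM or above, so every group overlapped with the control. Its main 2 transcripts moved together over the 35 libraries (r = 0.891), and it followed none of the gene sets described next.

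Most of the 200 did not vary independently. For each gene the group mean was subtracted from log2(CPM+1), and the genes were joined by the correlation of these deviations over the 35 libraries (average linkage). Clusters were joined while the mean r between their genes was 0.5 or more, so a single gene can have a lower mean r with its set. Sets of at least 8 genes were kept. This placed 186 of the 200 in 3 sets, of 78, 60 and 48 genes, and left 14 in none. The mean correlation between genes of a set was 0.712 in the 78-gene set, 0.906 in the 60-gene set and 0.763 in the 48-gene set. These values describe sets that the same correlations defined. The first 2 principal components of the deviations held 48.3% and 30.6% of the variance of the 200, and 28.5% and 21.0% of that of the other 5886 Trinity genes past the same steps. Of the 19900 pairs of the 200 genes, 28.9% had r above 0.5 and 16.2% had r below -0.5, where the shares over all pairs of the 6086 were 17.9% and 2.26%. The genes of a library share its depth and RNA, so these correlations carry no p-value.

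**Figure D2:**
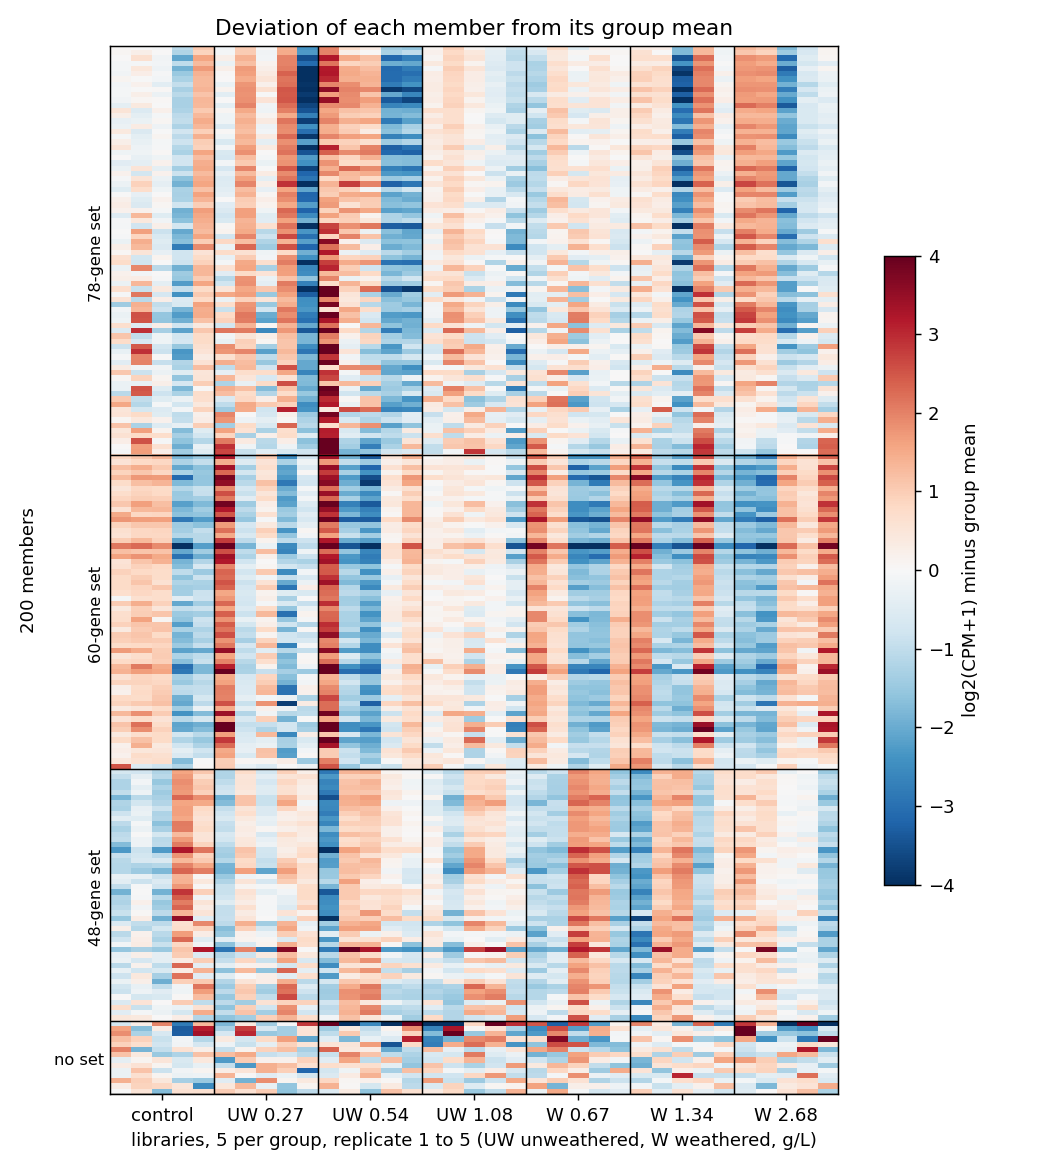
Deviation of each of the 200 genes (rows) from its group mean in log2(CPM+1), in the 35 libraries (columns, 5 per group in replicate order), red above and blue below the mean; the colour scale ends at 4 in either direction. Genes are ordered by set, and within a set by their mean correlation with it; in most groups the 60-gene set and the 48-gene set carry opposite colours in the same library.

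The 60-gene set was the tightest of the 3 and held 7 of the 10 most variable genes. The second in rank, TRINITY_DN8371_c0_g1 with an SD of 3.44, stood at 275, 307, 235, 2.82 and 12.9 CPM in the control. At unweathered 0.27 g/L it was at 435, 1.29, 5.90, 0.423 and 3.05 CPM, and at unweathered 0.54 g/L at 1084, 2.41, 0.472, 59.6 and 209 CPM. In each of these groups some libraries were high and others at a few CPM or less. Unweathered 1.08 g/L had 98.5, 191, 215, 134 and 6.72 CPM. The weathered groups had 754, 233, 2.00, 1.81 and 280.5 CPM at 0.67 g/L, 409.8, 2.33, 1.02, 524 and 2.82 CPM at 1.34 g/L, and 3.65, 1.44, 204, 94.0 and 609.9 CPM at 2.68 g/L. Over all libraries 16 were at or below 12.9 CPM and 19 at or above 59.6 CPM, and all 7 groups had libraries on both sides.

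The mean of the 60-gene set divided the same libraries. Its widest gap, apart from the extremes, lay between 4.70 and 5.20 in mean log2(CPM+1), with 16 libraries below and 19 above. The control had 2 libraries below the gap and 3 above, unweathered 0.27 g/L had 4 and 1, unweathered 1.08 g/L had 1 and 4, weathered 1.34 g/L had 3 and 2, and the other 3 groups had 2 and 3 each. For 25 of the 60 genes every one of the 19 libraries was above every one of the 16. Outside the set this held for 1 more Trinity gene of the 6086, a member of the 78-gene set. The mean of the 60-gene set placed the gap, and the rule chose genes with a wide spread, so these counts are descriptions.

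The 2 genes most typical of the 60-gene set were TRINITY_DN7848_c0_g1 (mean r with the rest of the set 0.945) and TRINITY_DN5663_c0_g1 (0.943). TRINITY_DN7848_c0_g1 ran from 1.25 to 292 CPM with a median of 43.3 CPM, and its control libraries were at 64.0, 75.1, 91.5, 9.16 and 11.8 CPM. TRINITY_DN5663_c0_g1, a more abundant gene just inside the cut with an SD of 1.04, ran from 89.99 to 1026 CPM, with 584, 696, 699, 170.0 and 205 CPM in the control. In both, control replicates 1 to 3 were high and replicates 4 and 5 low, as for TRINITY_DN8371_c0_g1. The other leading genes of the set were TRINITY_DN2238_c1_g1, TRINITY_DN3257_c0_g1, TRINITY_DN10323_c0_g1, TRINITY_DN12858_c0_g1, TRINITY_DN915_c0_g1 and TRINITY_DN14286_c0_g1, with SDs between 2.33 and 2.72. TRINITY_DN3257_c0_g1, for one, was at 47.0, 58.0, 53.5, 1.55 and 4.29 CPM in the control and at 70.01, 1.52, 1.10, 152 and 1.20 CPM at weathered 1.34 g/L. Over the set as a whole the median gene had a highest library 72.4 times its lowest. The summed share of the 60 genes ran from 0.0857% to 2.58% of the counts of a library.

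The 48-gene set moved against the 60-gene set. Its most variable gene was TRINITY_DN5096_c0_g1, with an SD of 2.70 and 3 transcripts. In the control it was at 0.300, 0.551, 0.365, 7.25 and 34.1 CPM, so that replicates 4 and 5, low for the 60-gene set, were its high ones. At unweathered 0.54 g/L the values were 0.716, 208, 113, 1.46 and 1.27 CPM, with the highest in replicates 2 and 3, the lowest of that group for TRINITY_DN8371_c0_g1. The weathered group at 0.67 g/L had 0.336, 0.473, 48.1, 39.1 and 0.292 CPM. Here too replicates 3 and 4 were high where TRINITY_DN8371_c0_g1 was low. The remaining groups had 0.404, 41.1, 0.528, 134 and 9.78 CPM at unweathered 0.27 g/L, 1.77, 0.944, 60.6, 99.9 and 1.14 CPM at unweathered 1.08 g/L, and 0.746, 65.1, 15.7, 0.300 and 2.11 CPM at weathered 1.34 g/L. Weathered 2.68 g/L had 3.89, 68.4, 0.612, 3.65 and 0.182 CPM. All groups overlapped, and 14 of the 35 libraries were below 1 CPM.

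**Figure D3:**
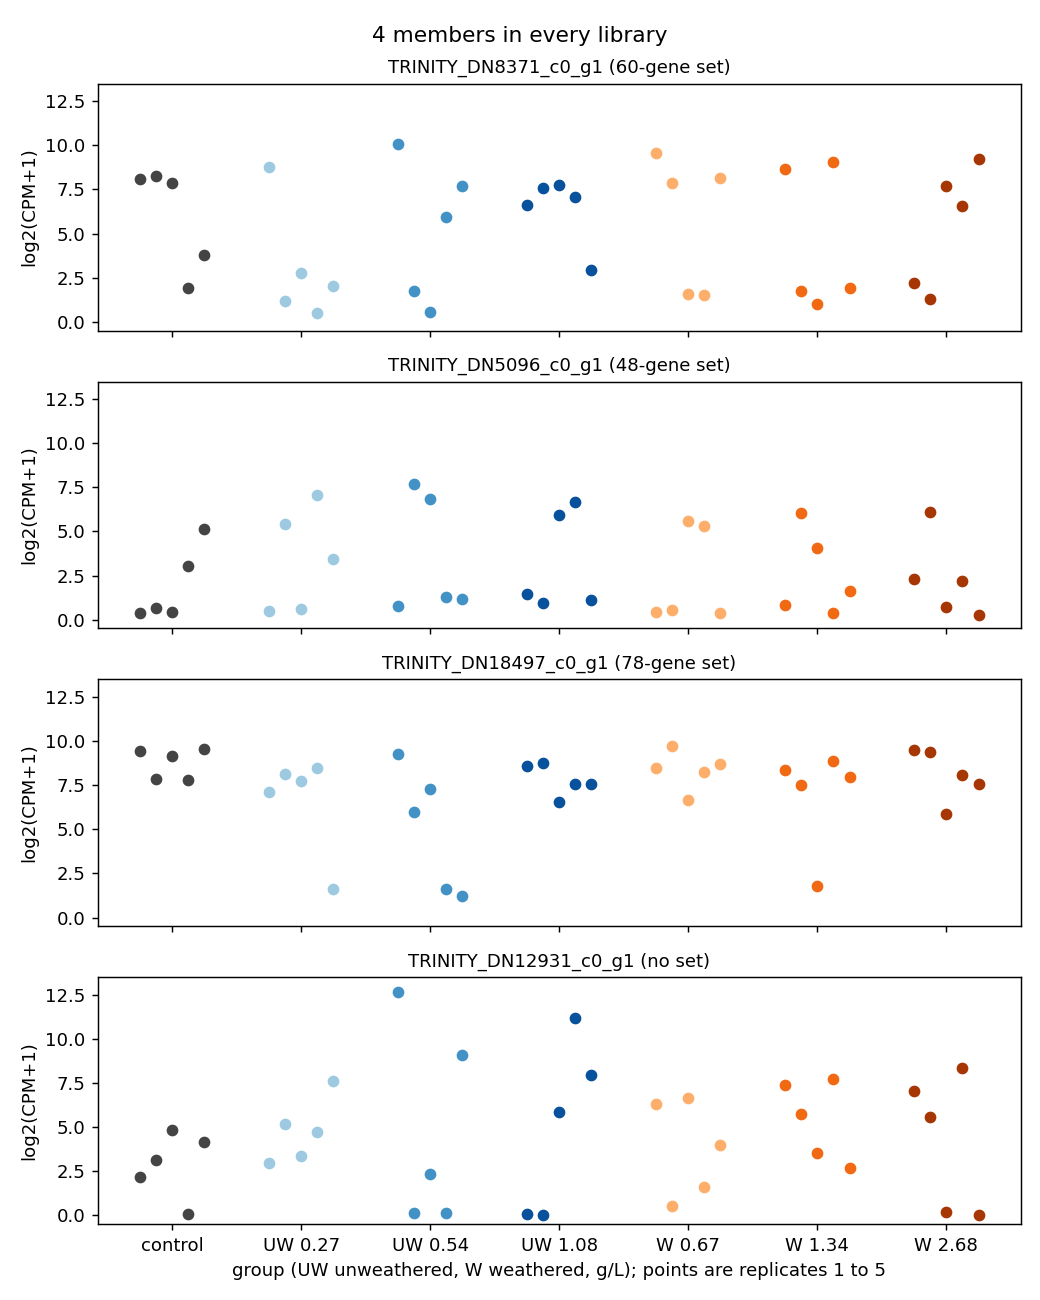
Level of 4 of the 200 genes in log2(CPM+1) (y axis) in each of the 5 libraries of each group (x axis). TRINITY_DN8371_c0_g1 of the 60-gene set and TRINITY_DN5096_c0_g1 of the 48-gene set are high in different libraries of most groups, TRINITY_DN18497_c0_g1 of the 78-gene set is at or below 2.50 CPM in 4 libraries, and TRINITY_DN12931_c0_g1, in no set, runs from 0 to 6388 CPM.

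The most typical genes of the 48-gene set were TRINITY_DN18347_c0_g1 (mean r with the rest of the set 0.858) and TRINITY_DN15090_c0_g1 (0.851). TRINITY_DN18347_c0_g1 was at 7.55, 7.29, 5.15, 41.2 and 28.3 CPM in the control and between 3.33 and 116 CPM over all libraries. TRINITY_DN15090_c0_g1, of a single transcript, was at 45.9, 70.9, 42.4, 300.0 and 146 CPM in the control and between 42.4 and 512 CPM over all libraries. Both were low in control replicates 1 to 3 and higher in replicates 4 and 5. The 48-gene set had narrower ranges than the others: its median gene had a highest library 24.3 times its lowest, and 5 of its 48 genes fell below 1 CPM in some library, beside 14 of 60 and 35 of 78.

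The mean levels of the 60-gene and 48-gene sets, taken as deviations from the group means, correlated with r = -0.904 over the 35 libraries (Spearman's rho = -0.906), and with r = -0.889 without the 2 libraries farthest from the median of the 60-gene set. All 2880 pairs of a gene of one set and a gene of the other had a negative r. The most opposed pair of all 200 genes, picked out by that value, was TRINITY_DN58_c0_g1 and TRINITY_DN43029_c0_g1 (r = -0.927), from the 48-gene and the 60-gene set. Levels in CPM are shares of 1 total, of which the 60-gene set held at most 2.58% and the 48-gene set at most 1.53% in a library. The part of this shared total in the relation was not tested. The libraries of unweathered 1.08 g/L had 60-gene set levels of 5.65, 5.84, 5.61, 5.58 and 4.70, a range of 1.15, and 48-gene set levels of 5.68, 4.73, 6.69, 6.44 and 5.55. The range of the 60-gene set in the other 6 groups was between 2.75 and 5.02. The 48-gene set had a range of 1.97 there, and its range was also 1.97 in the highest weathered group, at 2.68 g/L, and 2.04 at unweathered 0.27 g/L. At unweathered 1.08 g/L the 2 high libraries of TRINITY_DN5096_c0_g1, replicates 3 and 4, were also high for TRINITY_DN8371_c0_g1, at 215 and 134 CPM. That group was used in choosing the genes, so its range was not tested against the others.

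**Figure D4:**
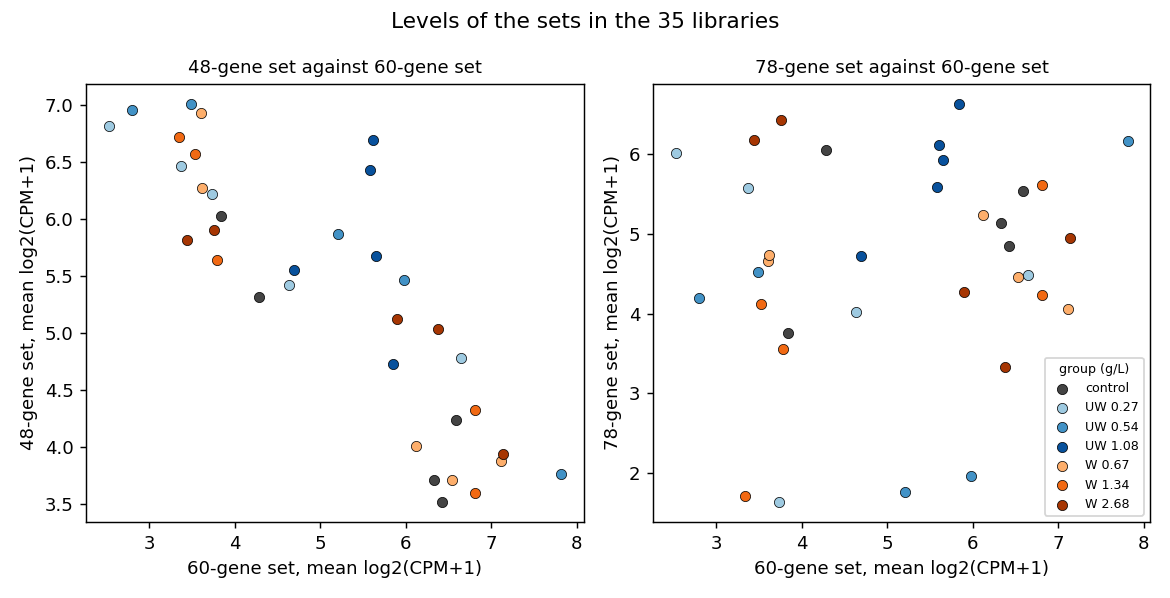
Mean log2(CPM+1) of the 48-gene set (left) and the 78-gene set (right) against that of the 60-gene set in the 35 libraries, coloured by group. The left panel falls from upper left to lower right (r = -0.856 for the plotted levels and -0.904 for deviations from the group means). The right panel shows no such line (r = 0.12 for the plotted levels and 0.04 for the deviations), with 4 libraries below 2.

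The 78-gene set, by its mean, varied largely apart from the other sets. Single genes did so less. Pairs of a gene of this set and a gene of the 60-gene set ran from r = -0.628 to 0.946, with 2448 of 4680 below 0. Pairs within the 78-gene set ran from r = -0.218 to 0.998. Not all its genes followed it closely: TRINITY_DN20341_c2_g1, picked out by this value, had a mean r of 0.273 with the rest of the set. The deviations of the 78-gene set mean correlated with those of the 60-gene set at r = 0.04 (rho = -0.05) and with those of the 48-gene set at r = -0.14 (rho = -0.05). The most typical genes of the 78-gene set were TRINITY_DN13145_c0_g1 (mean r with the rest of the set 0.831) and TRINITY_DN891_c5_g1 (0.829). TRINITY_DN13145_c0_g1 was at 11.6, 11.2, 10.8, 4.81 and 24.3 CPM in the control, at 6.23, 14.9, 7.01, 19.8 and 0.541 CPM at unweathered 0.27 g/L, and at 20.3, 8.03, 5.67, 1.05 and 0.802 CPM at unweathered 0.54 g/L. TRINITY_DN891_c5_g1 ran from 4.24 to 139 CPM, with 44.4, 49.99, 42.7, 17.9 and 79.7 CPM in the control. In both the control overlapped with every exposed group.

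In 4 libraries, named above, the mean of the 78-gene set was 1.63, 1.71, 1.77 and 1.96, and in the other 31 it was 3.33 or higher. The 60-gene set means of these 4 were 3.73, 3.34, 5.20 and 5.98, where that set ran from 2.53 to 7.81 over the 35 libraries. For 51 of the 78 genes all 4 libraries were below each of the other 31, and this held for 0 genes of the 60-gene set, 0 of the 48-gene set and 102 (1.68%) of the 6086. For 15 of the 78 the gap was wider than 2 on the log2 scale, and these 15 were all such Trinity genes among the 6086. The mean of the 78-gene set picked out the 4 libraries, and the rule favoured genes with so wide a gap within groups. These counts are therefore descriptions. TRINITY_DN18497_c0_g1, named after its values were seen, had the values 139, 286, 209.8, 363 and 2.11 CPM at unweathered 0.27 g/L and 628, 62.8, 158, 2.05 and 1.32 CPM at unweathered 0.54 g/L. The group at weathered 1.34 g/L had 327, 178, 2.50, 474 and 248 CPM and the control 692, 234, 570.2, 223 and 741 CPM. In the remaining 3 groups it was at 377, 437, 91.3, 189 and 192 CPM (unweathered 1.08 g/L), 358, 831, 102, 306 and 422 CPM (weathered 0.67 g/L) and 715, 656, 57.8, 268 and 190.4 CPM (weathered 2.68 g/L). The 4 libraries thus held at most 2.50 CPM and the other 31 at least 57.8 CPM. TRINITY_DN774_c0_g1, also named after its values were seen, was at 19.4 CPM or below in the 4 and at 178 CPM or above in the rest.

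The correlations of the 78-gene set did not rest on these 4 libraries alone. Without them, the mean correlation between its 78 genes was 0.599, beside 0.712 with them, and 175 of the 200 genes were again chosen by the rule. Sets were then drawn again from all 200 genes, not from the 175 alone, and had 68, 60, 49 and 9 genes. Of the 60, 58 came from the 78-gene set, and so did all 9. The correlation of the 60-gene and 48-gene set means was -0.902 without the 4 libraries. One member of the 78-gene set, TRINITY_DN56413_c0_g1 (SD 2.33), varied widely also in groups with none of the 4, with 7.97, 99.5, 4.25, 1.99 and 26.7 CPM in the control and 102, 41.0, 0.828, 2.28 and 28.3 CPM at weathered 2.68 g/L.

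The level of the 78-gene set moved with the composition of the library. Over the 35 libraries the deviations of its mean had r = -0.726 (rho = -0.688) with the percentage of TPM in the 100 most abundant Trinity genes, and r = -0.680 without the 2 libraries farthest from the median of that percentage. The 5 libraries lowest in the set had 45.7% to 49.4% of TPM in those 100 genes, and the 5 highest had 40.8% to 43.6%. The part of this composition in the spread of the 78 genes was not tested. With the total count r was 0.24, and with the number of genes detected 0.31. For the 60-gene and 48-gene sets r with these 3 quantities lay between -0.23 and 0.30. These are 9 correlations in all, given as descriptions.

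Whether the sets held in libraries that had not been used to draw them was examined by building sets of the 200 genes from the 20 control and unweathered libraries and measuring them in the 15 weathered libraries. The 200 genes themselves had been chosen with all 35. The 3 sets built this way had 78, 61 and 43 genes, of which 77, 60 and 43 were in the 78-gene, 60-gene and 48-gene sets. In the weathered libraries their mean pairwise r was 0.671, 0.927 and 0.875, against 0.0899 over all pairs of the 200. All 1830 gene pairs of the 61-gene set and all 903 of the 43-gene set had a positive r there, as did 2913 of 3003 of the largest. The means of the 61-gene and 43-gene sets had r = -0.933 in the weathered libraries. In the opposite direction, sets of 69, 68 and 49 genes built from the weathered libraries had a mean r of 0.806, 0.823 and 0.662 in the other 20 libraries, and the means of the latter 2 had r = -0.871 there.

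The SD of the 7 group means was 0.472 for the 60-gene set, 0.515 for the 48-gene set and 0.734 for the 78-gene set, and the pooled within-group SD was 1.56, 1.14 and 1.28. The genes were chosen for the latter, and means of 5 libraries vary less than single libraries, so nothing is read from this difference. The group means of the 60-gene set ran from 4.18 (SD 1.57, n = 5) at unweathered 0.27 g/L to 5.49 (SD 1.32, n = 5) in the control. Those of the 48-gene set ran from 4.56 (SD 1.08, n = 5) in the control to 5.94 (SD 0.828, n = 5) at unweathered 0.27 g/L. Without the 4 low libraries the highest mean of the 48-gene set was 5.91 (SD 1.86, n = 3), at unweathered 0.54 g/L. Unweathered 0.27 g/L then had 5.87 (SD 0.940, n = 4). The group means of the 78-gene set ran from 3.73 (SD 1.86, n = 5) at unweathered 0.54 g/L to 5.80 (SD 0.708, n = 5) at unweathered 1.08 g/L. The control, at 5.07 (SD 0.860, n = 5), lay between them. With rising concentration the mean of the 78-gene set was 4.35, 3.73 and 5.80 for unweathered and 4.63, 3.85 and 5.03 for weathered leachate, with the lowest value at the middle concentration of each. All 4 low libraries were in unweathered 0.27 g/L, unweathered 0.54 g/L and weathered 1.34 g/L. Without them these means were 5.03 (SD 0.934, n = 4), 4.97 (SD 1.05, n = 3) and 4.38 (SD 0.875, n = 4). The middle and lowest concentrations of unweathered leachate then differed by far less than 1 SD, and weathered 1.34 g/L, at 4.38, was the lowest of the 7 groups.

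**Figure D5:**
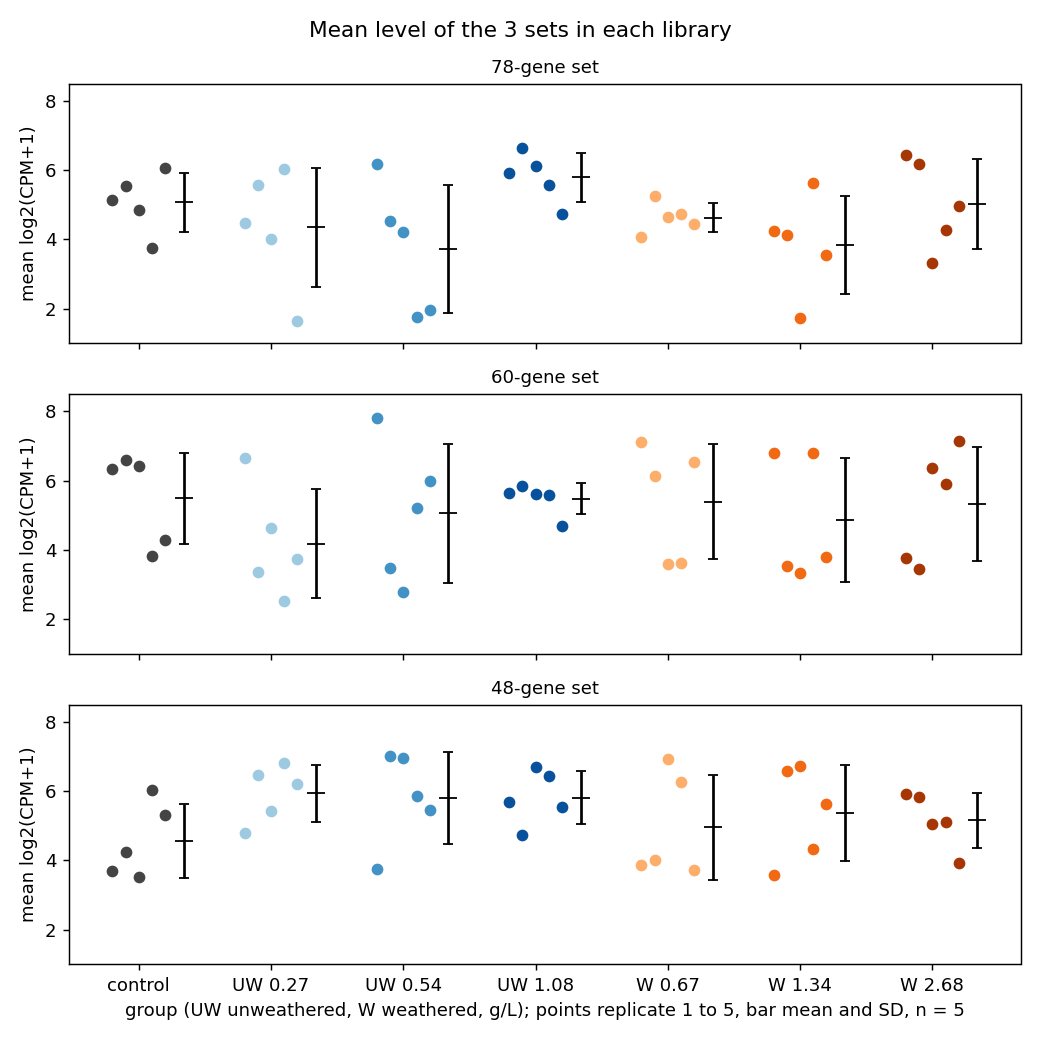
Mean log2(CPM+1) of the genes of each set (y axis) in each library (points, replicates 1 to 5) by group (x axis), with the group mean and SD (n = 5) as a bar. Libraries of each group overlap with the control in all 3 panels, and 4 libraries lie below 2 for the 78-gene set.

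The comparison of each exposed group with the control asked which genes changed with the leachate. It was fitted with edgeR's quasi-likelihood test to all 17990 Trinity genes past a filter on low counts, which kept all 200. At unweathered 0.27 g/L, 0 of the 200 passed a Benjamini-Hochberg adjusted p of 0.05 (0.00556% of all genes tested did), with 15 (7.5%) at an unadjusted p under 0.05, as were 7.28% of all. At unweathered 0.54 g/L it was 0 (0.156% of all), with 34 (17%) at an unadjusted p under 0.05, as were 10.05% of all. At weathered 0.67 g/L it was 0 (0.345% of all), with 2 (1%) at an unadjusted p under 0.05, as were 13.7% of all. At weathered 1.34 g/L it was 0 (0.0334% of all), with 7 (3.5%) and 10.4% of all at an unadjusted p under 0.05. At weathered 2.68 g/L it was 0 (0.889% of all), with 1 (0.5%) and 10.4% of all. With calls this rare among all genes, 0 of 200 is near the background in each comparison. The standard error (SE) of a log2 change was approximated by its size divided by the square root of the test's F statistic. The median of this SE was between 0.838 and 0.855 for the 200, where it was 0.222 to 0.223 over all genes tested. The rule chose genes for the within-group spread that enters the error of this test, so it favoured few calls among them, and a count of 0 is a description. Without the 4 low libraries 0 of the 200 were called in each of the 5 comparisons. The count over all genes depended on single libraries most clearly at weathered 0.67 g/L. There edgeR called 62 of all genes, from 0 without control replicate 1, 2 or 5 to 325 without weathered 0.67 g/L replicate 2. At weathered 2.68 g/L it called 160, and 85 to 200 with 1 library left out. The authors' deposited tables, which test single transcripts, held 0 of the 200 with a transcript at an adjusted p under 0.05 in each of these comparisons, where 0.0406%, 0.254%, 0.548%, 0.122% and 1.41% of the Trinity genes in the tables had one.

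The DESeq2 Wald test called 2 of the 200 at unweathered 0.54 g/L (1.04% of all genes it gave an adjusted p) and 2 at weathered 1.34 g/L (0.659% of all). It called 0 at unweathered 0.27 g/L (0.22% of all), weathered 0.67 g/L (3.06%) and weathered 2.68 g/L (1.97%). At unweathered 0.54 g/L the 2 were TRINITY_DN12931_c0_g1, with a log2 change of 7.02 (DESeq2 adjusted p = 0.0232), and TRINITY_DN22074_c0_g1, with -4.62 (DESeq2 adjusted p = 0.0493). With edgeR their log2 changes were 7.02 (SE 2.48, edgeR adjusted p = 0.300) and -4.63 (SE 1.62, edgeR adjusted p = 0.293). The first rests on the 2 libraries at 6388 and 542 CPM, since the other 3 of that group were within the range of the control. At weathered 1.34 g/L the 2 were TRINITY_DN22074_c0_g1, with -5.32 (DESeq2 adjusted p = 0.0183), and TRINITY_DN11250_c0_g1, with -6.18 (DESeq2 adjusted p = 0.0142). TRINITY_DN22074_c0_g1 and TRINITY_DN11250_c0_g1 were named after their values were seen. Leaving out control replicate 4 let edgeR call 2 of the 200 at unweathered 0.54 g/L (0.609% of all), both of the 48-gene set and named for that call, TRINITY_DN2423_c5_g1 at a log2 change of 2.85 (edgeR adjusted p = 0.0466) and TRINITY_DN88_c45_g1 at 2.62 (edgeR adjusted p = 0.0437).

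The direction of the log2 changes differed by set. Of the 48-gene set, 48 of 48 genes had a log2 change above 0 at unweathered 0.27 g/L with a median of 1.31, 47 at unweathered 0.54 g/L with a median of 1.45, 48 at weathered 0.67 g/L with 0.75, 45 at weathered 1.34 g/L with 1.03 and 39 at weathered 2.68 g/L with 0.37. The comparisons share the control libraries, 3 of which were low for this set. Without the 4 low libraries the count at weathered 1.34 g/L was 40 with a median of 0.62. Of the 60-gene set, 5 of 60 were above 0 at unweathered 0.27 g/L (median -0.70), 41 at unweathered 0.54 g/L (0.17), 55 at weathered 0.67 g/L (0.46), 27 (-0.03) at weathered 1.34 g/L, while weathered 2.68 g/L had 43 (0.23). Without the 4 libraries it had 46 above 0 at weathered 1.34 g/L, with a median of 0.21, and a median of 0.37 at unweathered 0.54 g/L. Of the 78-gene set, 29 of 78 were above 0 at unweathered 0.27 g/L (median -0.23), 25 at unweathered 0.54 g/L (-1.06), 9 at weathered 0.67 g/L (-0.37), 3 (-0.97) at weathered 1.34 g/L, while weathered 2.68 g/L had 61 (0.29). Without the 4 libraries the median of the 78-gene set was 0.06 at unweathered 0.27 g/L with 44 above 0, -0.44 at unweathered 0.54 g/L with 29, and -0.71 at weathered 1.34 g/L with 6. The median over all genes tested lay between -0.0022 and 0.023 in these comparisons. Since the genes of a set move together in each library, such counts are 1 difference seen many times, and no gene in them passed edgeR's test with all libraries.

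The 14 genes in no set included some that were nearly present or absent. TRINITY_DN28860_c0_g1, named after its values were seen, was at 0.967, 35.7, 33.7, 0.763 and 0.834 CPM at weathered 0.67 g/L and at 1.04, 37.6, 64.1, 34.9 and 1.68 CPM at unweathered 1.08 g/L. With replicate 4 of unweathered 0.54 g/L at 1.51 CPM, 6 libraries were at or below 1.68 CPM and the other 29 at or above 14.7 CPM. The control libraries, at 59.4, 49.2, 17.7, 27.7 and 18.8 CPM, were all among the 29. TRINITY_DN38855_c0_g1, also named after its values were seen, had 19 libraries at or below 6.56 CPM and 16 at or above 21.9 CPM. Its control libraries were at 38.0, 21.9, 5.23, 6.47 and 38.4 CPM, and every group had libraries on both sides.

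TRINITY_DN22074_c0_g1 and TRINITY_DN11250_c0_g1 were high in the same few libraries. The first was at 126, 11.7, 49.7, 3.15 and 362 CPM in the control and the second at 47.2, 4.45, 7.41, 0.332 and 133 CPM. At weathered 1.34 g/L they were at 1.54, 3.59, 2.80, 1.03 and 3.16 CPM and at 0.299, 0.0740, 0.932, 0.644 and 0.414 CPM. In that group the libraries overlapped with the control in control replicate 4 alone, for either gene. At weathered 2.68 g/L the first was at 276, 6.45, 0.504, 0.235 and 3.60 CPM and the second at 159.6, 0.325, 0.252, 0.118 and 0.728 CPM, so that 1 library there reached the level of the high control libraries.

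A single transcript made up 110 of the 200 (55%), beside 53.4% of the 6086. The longest transcript had a median of 1886.5 bases in the 200 (quartiles 1217 and 2932) and of 2336 bases in the 6086 (quartiles 1555 and 3544). For 67 of the 200 a second transcript held at least 10% of the counts, and the main 2 transcripts of these genes correlated with a median r of 0.873 over the libraries, 58 of 67 above 0.5 and 0 below 0. In most of these genes the isoforms thus rose and fell with each other across libraries, although kallisto divides reads among similar transcripts. Exceptions among the genes named above were TRINITY_DN5663_c0_g1 (r = 0.057), TRINITY_DN28860_c0_g1 (r = 0.269) and TRINITY_DN18497_c0_g1 (r = 0.312). The 200 genes came from 198 Trinity clusters, the groups of related transcripts in the assembly. The 2 clusters with 2 members each were TRINITY_DN14286_c0_g1 with TRINITY_DN14286_c0_g2 (r = 0.892, 60-gene set) and TRINITY_DN4291_c0_g1 with TRINITY_DN4291_c0_g2 (r = 0.889, 48-gene set). Such pairs can share reads, and their separate counts are uncertain. The closest pair of all, also picked out by its value, was TRINITY_DN19943_c0_g1 and TRINITY_DN9405_c0_g1 of the 60-gene set (r = 0.999), from different clusters.

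Other Trinity genes, whose smaller spread the rule fixed, were correlated with the sets. Of the 5886 others past the same steps, 90 had r above 0.8 with the mean of the 78-gene set and 4 had r below -0.8. For the 60-gene set the numbers were 97 and 48, and for the 48-gene set 99 and 85. At a cut of 0.6 in place of 0.8 the sets differed more. The numbers were then 863 and 109 for the 78-gene set, 252 and 215 for the 60-gene set, and 236 and 240 for the 48-gene set.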

How the data were processed

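RNA from whole mysids was sequenced in 35 libraries, 7 groups of 5. The authors deposited, per library, the estimated count and the TPM of 34903 transcripts and their lengths. Trimmomatic 0.38, kallisto and DESeq2 were used, per the submitters' processing notes. For the assembly and the kallisto version, the sources used here state nothing. The authors also deposited comparison tables with a log2 fold change and an adjusted p-value per transcript, per the file headers; how these were made is not stated.

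Here estimated counts were summed per Trinity gene. CPM used the library total and a pseudocount of 1 on the log2 scale. For tests the sums were rounded to whole numbers, filtered with filterByExpr (minimum count 10, minimum total 15) and scaled by TMM (factors 0.768 to 1.155). edgeR 4.0.16 in R 4.3.3 fitted 7 group means, with Benjamini-Hochberg adjustment over 17990 Trinity genes. The filter kept 99.92% to 99.97% of the counts. DESeq2 1.42.0 was an alternative, beside other scalings, no filter, the compared groups alone, a replicate block and each library left out. Sets were built in Python 3.11.15 with numpy 2.4.6, pandas 2.3.3 and scipy 1.17.1. The scripts were tested on simulated data.

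Genes were named by a rule: the 10 most variable, the 2 most typical of each set, those on either side of the cut, and pairs of 1 Trinity cluster; others are marked where they appear. The genes, sets and rules were chosen with earlier results of these data known. Unweathered 1.08 g/L against the control was not tested for the 200, since it entered the choice. Counting error is small at these depths, but values of a few counts are uncertain.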

Additional observations from a re-analysis of the deposited data

Results flagged for a closer look

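Single libraries far from the other 4 of their group were looked for in 29 genes and the 3 set means, in 224 groups of 5 values on the log2 scale. In 17 groups the gap from the highest or lowest library to its neighbour was above Dixon's 95% critical value, where chance gives about 1 in 20 in genes not chosen for their spread. These genes were chosen for within-group spread, some were named after their values were seen, and they are correlated, so the 17 are a description and are not read against that rate.

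In replicate 1 of unweathered 0.27 g/L, 3 genes of the 60-gene set were far above the other 4 libraries. TRINITY_DN8371_c0_g1 was at 435 CPM where the others were between 0.423 and 5.90 CPM. TRINITY_DN3257_c0_g1 was at 158 CPM (others 0.885 to 1.73 CPM) and TRINITY_DN915_c0_g1 at 102 CPM (others 1.38 to 2.50 CPM).

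In replicate 5 of unweathered 1.08 g/L the same set was low. Its mean was 4.70 in log2(CPM+1), where the others were between 5.58 and 5.84. TRINITY_DN8371_c0_g1 was at 6.72 CPM (others 98.5 to 215 CPM), TRINITY_DN2238_c1_g1 at 24.4 CPM (others 141 to 237 CPM) and TRINITY_DN10323_c0_g1 at 8.20 CPM (others 49.2 to 62.3 CPM).

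Of the 4 libraries low in the 78-gene set, replicate 5 of unweathered 0.27 g/L had TRINITY_DN18497_c0_g1 at 2.11 CPM (others 139 to 363 CPM). Replicate 3 of weathered 1.34 g/L had it at 2.50 CPM (others 178 to 474 CPM) and TRINITY_DN774_c0_g1 at 15.04 CPM (others 325 to 900.1 CPM). Replicate 4 of unweathered 0.54 g/L had TRINITY_DN28860_c0_g1 at 1.51 CPM (others 37.8 to 86.9 CPM).

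Replicate 1 of unweathered 0.54 g/L was low for TRINITY_DN15090_c0_g1 of the 48-gene set, at 48.4 CPM (others 258 to 469 CPM), and high for TRINITY_DN10665_c0_g2, just outside the cut, at 173 CPM (others 8.06 to 14.2 CPM). Replicate 5 of weathered 2.68 g/L was high for TRINITY_DN10665_c0_g2, at 46.7 CPM (others 18.8 to 23.0 CPM), and low for TRINITY_DN2111_c0_g1, at 8.24 CPM (others 21.5 to 27.7 CPM). In no set, TRINITY_DN38855_c0_g1 was at 36.5 CPM in replicate 3 of unweathered 1.08 g/L (others 4.50 to 6.56 CPM), and TRINITY_DN11250_c0_g1 at 159.6 CPM in replicate 1 of weathered 2.68 g/L (others 0.118 to 0.728 CPM).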

How the results depend on the processing

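The number of the 200 genes called stayed at 0 in the 5 comparisons under upper quartile and RLE scaling, no filter, the compared groups alone, the replicate block and, chosen after seeing the data, without the 4 low libraries. Since the rule chose genes with a large error in this test, this shows nothing about stability. DESeq2 called 2 at unweathered 0.54 g/L and 2 at weathered 1.34 g/L. Leaving out 1 library gave 0 to 2 calls at unweathered 0.54 g/L, where control replicate 4 gave the 2, and 0 to 0 in the other 4 comparisons. Same-numbered libraries did not deviate together in the median. Over 105 pairs the median r was 0.0036 for all genes tested and 0.014 for the 200. In both, 8 of 35 libraries were nearest their own number, of 5 possible numbers. Single pairs ran from r = -0.40 to 0.50 over all genes tested, and from -0.84 to 0.85 over the 200. Whether some same-numbered libraries were paired was not tested. With the replicate block the 200 fell into 5 sets in place of 3, of which one shared 52 genes with the 78-gene set and another 34 with the 48-gene set, and all-gene calls were 1, 12, 2, 4 and 138. A cut at r = 0.6 gave 4 sets, with 55 genes of the 78-gene set in one. Leaving out 1 library gave 3 to 3 sets, of 66 to 78, 60 to 70 and 46 to 51 genes, and 185 to 199 of the 200 chosen again. These sets shared at least 65 genes with the 78-gene set, all 60 with the 60-gene set and at least 46 with the 48-gene set. Some genes of the 78-gene set were thus not placed stably, while the 60-gene set gained others. Without control replicate 1, for one, these sets had 71 and 66 genes, as they did with a pseudocount of 0.1. A minimum mean of 50 CPM kept 80 of the 200. These are the genes of the 200 with such a mean, so that count shows nothing about stability. The 48-gene set built from the weathered libraries had a mean r of 0.662 in the others, where the opposite direction gave 0.875. Without the 4 low libraries edgeR called 0, 6, 24, 6 and 129 of all genes, where all libraries gave 1, 28, 62, 6 and 160. Leaving out 1 library gave 0 to 2, 6 to 111, 0 to 325, 3 to 9 and 85 to 200. The cause of these shifts was not tested. Values of a few counts are limited by depth, and the comparisons by 5 libraries per group.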

Other observations

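An added fit, chosen after seeing the data, gave the mean levels of the 3 sets as covariates beside the 7 group means, which took the residual degrees of freedom from 28 to 25. It was applied to the 17790 Trinity genes outside the 200, whose calls by edgeR's quasi-likelihood test (adjusted p under 0.05) were counted. At unweathered 1.08 g/L, 178 were called with the covariates and 532 without, 150 of them in both. The sets consist of genes chosen so that this group and the control were not separated, and nothing is read from that count. At unweathered 0.54 g/L the counts were 10 and 28, with 8 in both. At unweathered 0.27 g/L they were 20 and 1, with 1 in both. In the weathered groups they were 71 and 62 at 0.67 g/L (50 in both), 14 and 6 at 1.34 g/L (6 in both) and 179 and 160 at 2.68 g/L (134 in both). Every gene called in both fits had the same direction in both. The set levels are themselves measured in these libraries and may differ with exposure, so the fit does not separate the exposure from the sets.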
